A study of Homo sapiens with 4 samples.

Results

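Genes of the Wnt pathway were followed through single-cell libraries of H1299 and HCT116 cells. They are the secreted antagonists SFRP1, SFRP2, SFRP4, SFRP5, DKK1, DKK3 and WIF1, the feedback genes AXIN2 and NKD1, and the nuclear factor LEF1. They were taken by name from the deposited gene table, in which all 10 of these genes were found among 40877 single gene names. H1299 cells come from a human lung carcinoma of the non-small cell kind and HCT116 cells from a human colorectal carcinoma, and both lines were used at passage 5 to 10. Each line received either the solvent DMSO (called untreated here) or DAC+SB (called treated). DAC (decitabine) blocks DNA methyltransferases, and SB939 blocks histone deacetylases. Cells were exposed to 500 nM of DAC during 72 h and to 500 nM of SB939 during 18 h, with compound and medium renewed every 24 h. Each of the 4 combinations was 1 library, so no test between groups was possible, no p-value is given, and a difference has no replicate check.

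In the canonical Wnt pathway a secreted Wnt protein binds a Frizzled receptor and an LRP co-receptor, the cytoplasmic complex that degrades beta-catenin is inhibited, and beta-catenin enters the nucleus to activate genes with TCF and LEF proteins. SFRP proteins and WIF1 bind Wnt proteins outside the cell, and DKK1 blocks the LRP co-receptor. AXIN2 and NKD1 are transcribed in response to beta-catenin and damp the signal. Promoters of the SFRP genes, WIF1 and DKK3 are known to carry DNA methylation in many colorectal tumours. HCT116 carries a mutant beta-catenin that escapes degradation, which is why the lines were contrasted. All other differences between the lines cannot be told apart from that mutation.

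The libraries held 3578 to 4327 cells, with 38927267 summed gene and transposable element (TE) counts in HCT116 DAC+SB and 62428673 to 64524196 in the other 3 libraries. The median count per cell was 8449 in HCT116 DAC+SB and 15784.5 to 17369.5 in the others. Between 18 and 30 cell barcodes were shared by any pair of libraries, and 131 of the 15158 different barcodes occurred in more than 1. The median mitochondrial share was 8.33% and 8.87% in H1299 (DMSO first) and 15.8% and 18.6% in HCT116. Levels are given as CPM, the counts of a gene per 1000000 gene plus TE counts of a library. Parentheses after a CPM, a ratio or a share hold a 95% interval that covers counting error only. Of the marker lists, 3 epithelial genes (EPCAM, CDH1, CLDN4) summed to 107 CPM in HCT116 DMSO and 0.170 in H1299 DMSO, and 3 mesenchymal genes (VIM, CDH2, FN1) to 49.97 and 2304. CDX2 held 875 of the 897 counts of the 4 colon markers in HCT116 DMSO, where CDH17 had 0 counts. The 4 lung markers NKX2-1, NAPSA, SFTPB and SFTPC summed to 24 counts in H1299 DMSO and 59 in HCT116 DMSO, so these markers were nearly absent from untreated H1299. With DAC+SB they summed to 84 counts in H1299 and 68 in the smaller HCT116 library. These are 1.35 (1.07 to 1.67) and 1.75 (1.36 to 2.21) CPM, with overlapping intervals. With DAC+SB the epithelial sum was 11.0 CPM in H1299 and 58.9 in HCT116, and the mesenchymal sum 1193 and 277. Single genes did not all follow these sums. VIM held 147273 of the 148646 mesenchymal counts in untreated H1299 and was at 0.504 of that level when treated, where CDH2 was at 0.884 and FN1 at 3.97. In HCT116 EPCAM was at 0.560 and CLDN4 at 0.396 of the untreated level, and CDH1 at 4.34. The part of these marker differences in the results on the Wnt genes was not tested.

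With DMSO 6 of the 10 genes were at least 4-fold apart between the lines, and SFRP2, SFRP4, SFRP5 and WIF1 had at most 3 counts in either. As background, 8.11% of 13796 genes that reached 100 counts in either line were that far higher in HCT116, and 9.92% that far lower. DKK1, AXIN2 and NKD1 were higher in HCT116, at 50.9-fold, 6.96-fold and 52.0-fold the H1299 level. SFRP1, DKK3 and LEF1 had 0 counts in HCT116 against 183, 789 and 119 in H1299. With DAC+SB, SFRP1, SFRP2, DKK3, WIF1 and LEF1 all had between 30 and 348 counts in HCT116, and of the 6 genes with at least 100 counts in a H1299 library, NKD1, AXIN2 and DKK1 had the highest ratios of treated over untreated H1299. DKK1 was higher with DAC+SB in H1299 and lower with it in HCT116. SFRP4 and SFRP5 stayed at or below 7 counts in each of the 4 libraries.

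**Figure D1:**
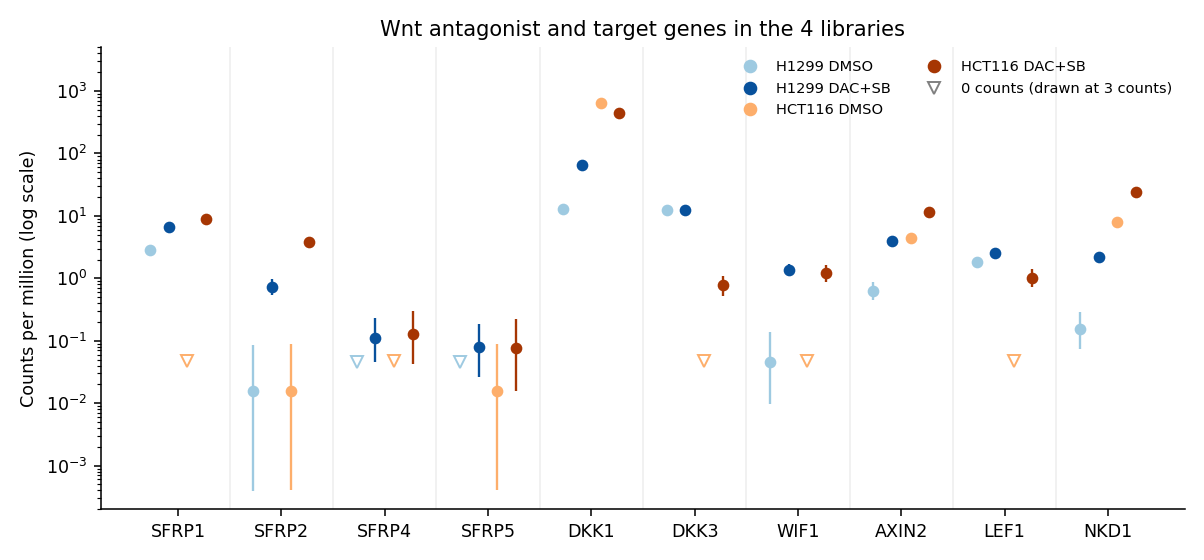
Level of each gene (horizontal axis) in CPM of gene plus TE counts (vertical axis, log scale), 1 point per library with a 95% Poisson interval. Open triangles mark libraries with 0 counts and are drawn at the level of 3 counts. HCT116 DMSO has 0 counts of SFRP1, SFRP4, DKK3, WIF1 and LEF1 and the highest level of DKK1.

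Of the SFRP genes, SFRP1 encodes a secreted decoy that resembles the Wnt-binding domain of Frizzled receptors. It had 183 counts in untreated and 416 in treated H1299, and 0 in untreated and 348 in treated HCT116. These are levels of 2.84 (2.44 to 3.28), 6.66 (6.04 to 7.34), 0 (3 counts would be 0.0479) and 8.94 (8.03 to 9.93) CPM. The intervals of the 4 libraries did not overlap, and the treated HCT116 library was the highest although its DMSO library had none. SFRP1 was 2.35-fold (log2 interval 0.98 to 1.49) higher with DAC+SB in H1299. In HCT116 it was 187-fold higher with the 0 set to 3 counts in the DMSO library, and its exact interval ran from 151 upward. The lines thus differed by 0.42 (0.21 to 0.63) on the log2 scale under DAC+SB, HCT116 over H1299. Under DMSO the value was -5.89 with the 0 set to 3 counts, and its interval reached up to -5.58. After each cell was thinned to 3300 counts, 0 of 3658 HCT116 DMSO cells had an SFRP1 count, or 0% (0 to 0.101). At that depth 3 cells would be 0.0820%. In HCT116 DAC+SB 105 of 3925 cells had one, or 2.68% (2.19 to 3.23). In H1299 the shares were 0.699% with DMSO and 1.91% with DAC+SB. Unthinned, H1299 had 4.36% and 9.31% (untreated first), and HCT116 0% and 6.89%. The most counts in 1 cell were 4, so no single cell carried the signal.

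SFRP2, a second secreted Frizzled-related protein, had 1 count in each DMSO library, 46 in H1299 DAC+SB and 150 in HCT116 DAC+SB. Its levels with DAC+SB were 0.737 (0.539 to 0.983) and 3.85 (3.26 to 4.52) CPM, 5.23-fold higher in HCT116 than in H1299. Both treated libraries were above both DMSO libraries, whose intervals overlapped. The log2 ratio over DMSO was 7.92 (5.41 to 13.23) in HCT116 and 5.57 (3.02 to 10.91) in H1299, with wide intervals because they rest on 1 DMSO count. The gene was seen as a feature without a number and as a feature numbered 1, and numbered features were listed only from 10 counts per library. Feature 1 held 105 of the 150 counts in HCT116 DAC+SB and 35 of the 46 in H1299 DAC+SB and was listed in neither DMSO library. Over the feature without a number alone the counts were 1 and 45 in HCT116 and 1 and 11 in H1299, DMSO first, with log2 ratios of 6.18 and 3.51. In HCT116 DAC+SB 1.78% of all cells had a count (0.943% of cells thinned to 3300 counts) and 1 cell held 19 of the 150 counts. At 3300 counts per cell the variance of SFRP2 over its mean was 1.74 in that library, against 1.18 for SFRP1, where a Poisson count gives 1.

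SFRP4 and SFRP5, the other two members of the family followed here, had too few counts to compare. SFRP4 had 0, 7, 0 and 5 counts and SFRP5 0, 5, 1 and 3, in the order untreated and treated H1299, then untreated and treated HCT116. The intervals of neighbouring levels overlapped for both genes. At 0 counts in H1299 DMSO the interval of either gene reached up to 0.0572 CPM, and 3 counts would be 0.0465 CPM.

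WIF1, a secreted inhibitor that binds Wnt proteins through a domain of its own kind, had 3 counts in untreated and 84 in treated H1299, and 0 in untreated and 47 in treated HCT116. The treated libraries stood at 1.35 (1.07 to 1.67) and 1.21 (0.887 to 1.61) CPM, and their intervals overlapped. The log2 ratio over DMSO was 4.85 (3.26 to 7.16) in H1299. In HCT116 WIF1 was 25.2-fold higher with the 0 set to 3 counts, with an interval from 19.7 upward. Its feature 1 was listed only in H1299 DAC+SB, with 17 counts. WIF1 stayed under 100 counts in every library and was therefore not counted among the genes past 4-fold.

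The promoters of SFRP2 and WIF1 are shown with LEF1, described further on, because these genes were at 0 to 1 counts in HCT116 with DMSO and at 40 to 150 with DAC+SB, a treatment that includes an inhibitor of CpG methylation. Capitals mark CpG dinucleotides. The windows run from 250 bases before to 50 after the gene's start on the gene's strand, 5′ to 3′, from RefSeq on GRCh38.p14, whose table held 6 of the 10 genes (SFRP2, SFRP4, SFRP5, DKK1, WIF1 and LEF1). The RefSeq starts of SFRP2, SFRP4, WIF1 and LEF1 lie inside the longer GENCODE genes, and for SFRP4, WIF1 and LEF1 the whole window does. The WIF1 window ends at 65121555, close to the gene's 5′ end at 65121566. The LEF1 and SFRP4 windows end at 108166551 and 37917067, with the genes' 5′ ends at 108168956 and 38025695. The CpG numbers of LEF1 and SFRP4 thus describe internal starts.
SFRP2 (chr4:153789034-153789333, minus strand): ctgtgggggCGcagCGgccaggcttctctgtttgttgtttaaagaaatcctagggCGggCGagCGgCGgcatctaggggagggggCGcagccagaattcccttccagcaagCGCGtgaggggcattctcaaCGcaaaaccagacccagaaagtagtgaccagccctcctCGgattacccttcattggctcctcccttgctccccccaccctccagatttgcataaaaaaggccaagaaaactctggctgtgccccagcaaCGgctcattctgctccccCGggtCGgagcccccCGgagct
WIF1 (chr12:65121256-65121555, minus strand): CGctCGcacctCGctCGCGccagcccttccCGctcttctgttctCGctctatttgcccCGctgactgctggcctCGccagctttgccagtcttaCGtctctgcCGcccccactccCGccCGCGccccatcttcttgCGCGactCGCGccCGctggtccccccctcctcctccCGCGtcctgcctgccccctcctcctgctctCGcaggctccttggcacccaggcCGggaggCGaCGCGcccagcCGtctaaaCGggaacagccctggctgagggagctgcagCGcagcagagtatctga
LEF1 (chr4:108166252-108166551, minus strand): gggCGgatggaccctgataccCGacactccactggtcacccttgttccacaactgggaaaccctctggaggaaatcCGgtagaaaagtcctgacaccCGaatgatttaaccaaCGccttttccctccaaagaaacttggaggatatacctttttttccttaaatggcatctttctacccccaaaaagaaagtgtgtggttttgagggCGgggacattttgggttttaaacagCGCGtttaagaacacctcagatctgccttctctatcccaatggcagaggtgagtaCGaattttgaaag
WIF1 held 29 CpG in its 300 bases, SFRP2 15 and LEF1 9, against a median of 14 over all 35116 promoters of the table. Of those promoters 75.8% held fewer CpG than WIF1, 51.1% fewer than SFRP2 and 41.6% fewer than LEF1. SFRP4 held 23 and SFRP5 28, and these genes stayed at or below 7 counts with DAC+SB. Methylation itself was not measured here.

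DKK1 (chromosome 10, 52314296 to 52318042 in GENCODE v29 on GRCh38) encodes a secreted protein that blocks Wnt signalling at the LRP co-receptor and is itself a known target of beta-catenin. It had 820 counts in untreated and 4127 in treated H1299, and 40496 in untreated and 16989 in treated HCT116. The levels were 12.7 (11.9 to 13.6), 66.1 (64.1 to 68.2), 646 (640 to 653) and 436 (430 to 443) CPM. Both HCT116 libraries were above both H1299 libraries, and no intervals overlapped. In H1299 DKK1 was 5.20-fold higher with DAC+SB, or 2.38 (2.27 to 2.49) on the log2 scale. In HCT116 the ratio was 0.675, or -0.57 (-0.59 to -0.54) on the log2 scale. The median log2 ratio over all genes with at least 100 counts was -0.07 in H1299 and -0.23 in HCT116, so DKK1 was on opposite sides of the median gene in the lines. Leaving mitochondrial, ribosomal protein and TE counts out of the denominator adds 0.07 to every log2 ratio in H1299 and 0.14 in HCT116, where DKK1 was then at -0.43. The HCT116 log2 ratio minus the H1299 one was -2.95 (-3.06 to -2.83). Of the 4 genes with at least 100 counts in both lines, 1 (DKK1) went opposite ways with both intervals leaving out a ratio of 1. Among all 12644 such genes 14% did, and 2.1% did and were at least 4-fold apart in a line. DKK1 was 50.9-fold higher in HCT116 than in H1299 with DMSO and 6.60-fold higher with DAC+SB.

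DKK1 counts lay in a feature numbered 1 and a feature without a number, whose positions no source used here gives. Feature 1 held 29.02% of DKK1 counts in untreated and 53.8% in treated H1299, and 68.3% in untreated and 75.3% in treated HCT116. In H1299 feature 1 was 9.65-fold (8.43 to 11.07) higher with DAC+SB and the other feature 3.38-fold (3.08 to 3.72). In HCT116 the ratios were 0.744 (0.729 to 0.760) and 0.526 (0.508 to 0.545). The share of feature 1 was thus higher with DAC+SB in both lines, and the direction of DKK1 was the same in both features of a line.

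The DKK1 promoter window is printed because DKK1 is a beta-catenin target whose ratio went opposite ways in the lines. Capitals mark the core letters of TCF and LEF binding motifs, CTTTG or its reverse complement CAAAG.
DKK1 (chr10:52314031-52314330, plus strand): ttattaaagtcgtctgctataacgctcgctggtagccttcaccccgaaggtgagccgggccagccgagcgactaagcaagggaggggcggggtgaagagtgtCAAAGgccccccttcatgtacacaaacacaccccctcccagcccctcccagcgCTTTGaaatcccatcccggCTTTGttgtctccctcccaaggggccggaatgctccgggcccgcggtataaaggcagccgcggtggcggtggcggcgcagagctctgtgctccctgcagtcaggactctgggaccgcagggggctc
The window held 3 matches of CTTTG on either strand. At least 1 match stood in 47.5% of all promoters of the table and at least 3 in 4.41%. LEF1 and WIF1 held 1 match each, and SFRP2, SFRP4 and SFRP5 held none. CTTTGAT, a longer form present on either strand in 2.62% of promoters, was in none of the 6 windows. Other longer forms were not tested. On the printed strand of the DKK1 window CTTTG was followed by aa and by tt. A match describes the letters and does not show binding.

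Within libraries DKK1 was compared over cells thinned to 3300 counts, for which 402 treated HCT116 cells were too shallow and no cell of another library was. A DKK1 count was present in 3.72% (3.12 to 4.39) of H1299 DMSO cells and 15.8% (14.7 to 17.0) of H1299 DAC+SB cells. Among HCT116 cells it was 78.0% (76.7 to 79.4) when untreated and 52.6% (51.0 to 54.2) when treated. Unthinned shares were 15.3%, 40.7%, 96.7% and 69.0% in the same order of libraries. No cell type that lacks DKK1 was in the data, so the part that free RNA gives was not measured. In HCT116 the mean per thinned cell was 2.20 with DMSO and 1.41 with DAC+SB, and the variance over the mean was 2.12 and 3.09. Cells without a DKK1 count made up 21.95% with DMSO and 47.4% with DAC+SB, and cells with at least 5 counts 12.4% and 7.92%. The highest cell had 16 counts with DMSO and 20 with DAC+SB. Relative to its mean, DKK1 thus varied more between treated than between untreated HCT116 cells at equal depth. Without cells above 25% mitochondrial counts the HCT116 shares were 78.7% and 52.3%.

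**Figure D2:**
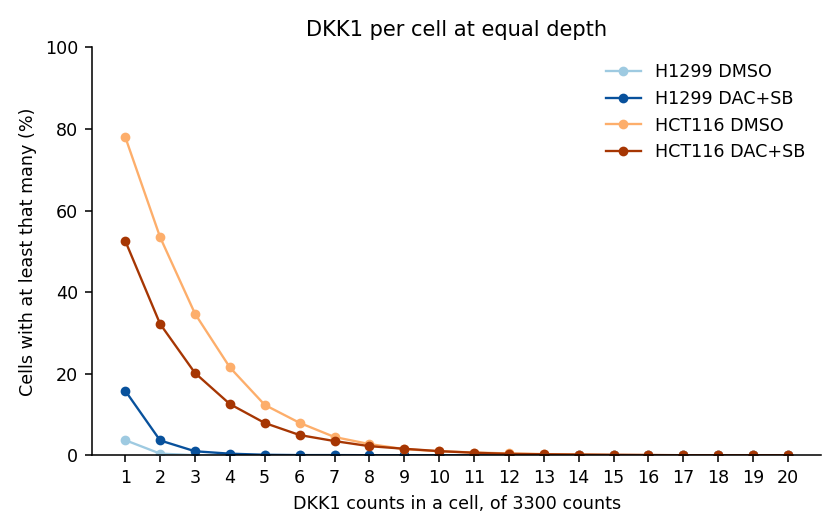
Share of cells in percent (vertical axis) with at least a given number of DKK1 counts (horizontal axis) after each cell was thinned to 3300 counts, 1 line per library. The HCT116 curves start at 78.0% with DMSO and 52.6% with DAC+SB and lie at 1.01% and 1.02% by 10 counts, and the H1299 curves start at 3.72% and 15.8%.

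In treated HCT116 cells the TE share was also recorded beside DKK1. Its median was 5.39% of counts in the 1861 cells without a DKK1 count, 4.61% in the 1753 cells with 1 to 4 and 3.88% in the 311 cells with 5 or more. The median depth of these cells was 8990, 9321 and 9441 counts and their median mitochondrial share 17.8%, 18.0% and 17.4%. Treated HCT116 cells with a count of SFRP1, AXIN2 or NKD1 also had a lower median TE share than those without. The values were 4.21% against 4.88% for SFRP1, 4.42% against 4.88% for AXIN2 and 4.82% against 4.88% for NKD1. In treated H1299 the median was 2.55% in cells without a DKK1 count and 2.61% in those with 1 to 4. There AXIN2 went the other way than in HCT116, with 3.27% in the 51 cells with a count against 2.55% without. For SFRP1 the treated H1299 values were 2.48% with and 2.55% without, and for DKK3 2.35% and 2.55%. These values describe cells of 1 library each and carry no test.

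DKK3 (chromosome 11, 11963106 to 12009769), a secreted relative of DKK1 whose action on Wnt signalling is less settled, was higher in H1299 than in HCT116 under both treatments. It had 789 counts in untreated and 787 in treated H1299, and 0 in untreated and 30 in treated HCT116. The H1299 levels of 12.2 (11.4 to 13.1) and 12.6 (11.7 to 13.5) CPM overlapped, with a ratio of 1.03 and a log2 interval of -0.10 to 0.19. In HCT116 DKK3 was 16.1-fold higher with DAC+SB when the 0 was set to 3 counts, with an interval from 12.3 upward. Its treated level was 0.771 (0.520 to 1.10) CPM. That treated level was still far below H1299, with a log2 ratio of -4.03 (-4.61 to -3.51) under DAC+SB. At 3300 counts 3.86% and 3.70% of H1299 cells had a count (DMSO first). Among HCT116 cells 0 of 3658 had one with DMSO, or 0% (0 to 0.101), and 0.204% with DAC+SB. At that depth 3 cells would be 0.0820%. Unthinned, 17.2% of untreated and 17.4% of treated H1299 cells had one, as did 0.624% of treated HCT116 cells.

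AXIN2 (chromosome 17, 65528563 to 65561647), a scaffold of the complex that degrades beta-catenin, had 41 counts in untreated and 249 in treated H1299, and 277 in untreated and 445 in treated HCT116. Its levels were 0.635 (0.456 to 0.862), 3.99 (3.51 to 4.52), 4.42 (3.92 to 4.97) and 11.4 (10.4 to 12.5) CPM. Treated H1299 and untreated HCT116 overlapped, and the other neighbours in this order did not. The log2 ratio over DMSO was 2.65 (2.17 to 3.16) in H1299 and 1.37 (1.15 to 1.59) in HCT116, a difference of -1.28 (-1.80 to -0.76) between the lines, HCT116 minus H1299. A feature numbered 1 was listed only in HCT116 DMSO, with 41 counts. The name that joins AXIN2 with the overlapping gene CTD-2535L24.2 held a further 6, 22, 53 and 91 counts, in the same order of libraries, so their part cannot be told apart. At 3300 counts 0.252%, 1.37%, 1.04% and 3.72% of cells had an AXIN2 count. Unthinned, the shares were 1.09%, 5.82%, 6.07% and 8.64%, and the intervals of treated H1299 and untreated HCT116 overlapped at both depths.

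NKD1 (chromosome 16, 50548330 to 50649249), which binds Dishevelled proteins and opposes the pathway, had 10 counts in untreated and 136 in treated H1299, and 505 in untreated and 948 in treated HCT116. The levels were 0.155 (0.0743 to 0.285), 2.18 (1.83 to 2.58), 8.06 (7.37 to 8.80) and 24.4 (22.8 to 26.0) CPM. All 4 intervals stood apart, in the same order as the levels of AXIN2. The log2 ratio over DMSO was 3.81 (2.89 to 4.91) in H1299 and 1.59 (1.44 to 1.75) in HCT116, a difference of -2.22 (-3.16 to -1.28) between the lines. Feature 1 of NKD1 held 131 counts in untreated and 372 in treated HCT116, 18 in treated H1299, and went unlisted in untreated H1299. In HCT116 it was 4.57-fold (3.73 to 5.62) higher with DAC+SB, and the feature without a number 2.48-fold (2.17 to 2.83). At 3300 counts 2.38% (1.91 to 2.93) of HCT116 DMSO cells and 7.59% (6.78 to 8.47) of HCT116 DAC+SB cells had a count. Of 3925 treated HCT116 cells, 146 had AXIN2, 298 had NKD1 and 9 had both, where the product of the shares gives 11.1 cells.

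LEF1 (chromosome 4, 108047545 to 108168956), a DNA-binding partner of beta-catenin, had its levels in the order of DKK3 rather than that of AXIN2 and NKD1. With SFRP1 it shared the 0 counts in HCT116 DMSO but not the order of its levels. It had 119 counts in untreated and 157 in treated H1299, and 0 in untreated and 40 in treated HCT116. The H1299 levels of 1.84 (1.53 to 2.21) and 2.51 (2.14 to 2.94) CPM overlapped, with a log2 ratio of 0.45 (0.09 to 0.80). In HCT116 LEF1 was 21.5-fold higher with DAC+SB when the 0 was set to 3 counts, with an interval from 16.7 upward. Its treated level was 1.03 (0.734 to 1.399) CPM and remained below H1299 with a log2 ratio of -1.29 (-1.83 to -0.78). At 3300 counts 0.503% and 1.07% of H1299 cells had a LEF1 count, untreated first, against 0 of 3658 untreated HCT116 cells and 0.484% of treated ones.

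Counted together, 6 of the 10 genes reached 100 counts in treated or untreated H1299. Of these, 3 (DKK1, AXIN2 and NKD1) were at least 4-fold higher with DAC+SB and 0 were at least 4-fold lower, where 11% of 14610 genes were higher and 0.349% lower. In HCT116 5 genes had at least 100 counts, 2 of them (SFRP1 and SFRP2) were at least 4-fold higher and 0 lower, against a background of 9.63% higher and 3.69% lower among 13539 genes. The median log2 ratio over the genes counted was 1.81 in H1299 and 1.59 in HCT116. AXIN2 and NKD1 in H1299 and SFRP1 and SFRP2 in HCT116 reached 100 counts only in the treated library. A gene under 100 counts with DMSO can pass this filter only by more counts with DAC+SB. The filter thus favours the higher side in these counts and medians, and over all genes too. SFRP2 drops under 100 counts in HCT116 when numbered features count only where both libraries list them, which leaves 1 gene. Of 7 genes with 0 to 3 counts in HCT116 DMSO, 5 (SFRP1, SFRP2, DKK3, WIF1 and LEF1) had at least 20 with DAC+SB, and of 4 such genes in H1299, 2 (SFRP2 and WIF1) did. Over all genes with 0 to 3 counts with DMSO these shares were 9.8% in HCT116 and 11.4% in H1299. The 10 genes were chosen for being Wnt antagonists or targets, many of them known for promoter methylation. Earlier results of these data were also known at that choice. These counts therefore describe the genes and are no test against the background.

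The contrast of the lines uses the same 4 libraries, so its values are not independent of those above. With DMSO all 6 genes that reached 100 counts in either library compared were at least 4-fold apart. Only DKK1 reached 100 counts in both libraries, and the others passed that filter through the line where they were higher. The 3 higher in HCT116 were DKK1, AXIN2 and NKD1, and the 3 lower were SFRP1, DKK3 and LEF1. Over 13796 genes 8.11% were at least 4-fold higher in HCT116 and 9.92% lower. With DAC+SB, DKK1, NKD1 and SFRP2 were at least 4-fold higher in HCT116 and DKK3 at least 4-fold lower, of 7 genes counted. The background was 4.65% higher and 8.97% lower among 14875 genes. AXIN2 stood at 1.52 (1.29 to 1.75) on the log2 scale and NKD1 at 3.48 (3.22 to 3.75) under DAC+SB, against 2.80 and 5.70 under DMSO. All 6 genes were closer between the lines with DAC+SB than with DMSO, with a median absolute log2 ratio of 5.68 under DMSO and 2.12 under DAC+SB. That is near the background, since 92.7% of the 2175 genes at least 4-fold apart under DMSO were closer under DAC+SB. Their medians were 4.66 and 1.90. Both sets were chosen for a large difference under DMSO, which favours a smaller one under DAC+SB. Without that choice, 51.5% of 13166 genes past the count filter in both contrasts were closer under DAC+SB. Their median absolute log2 ratio was 0.650 under DMSO and 0.690 under DAC+SB. Whether the treatment brought the lines closer was not tested.

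**Figure D3:**
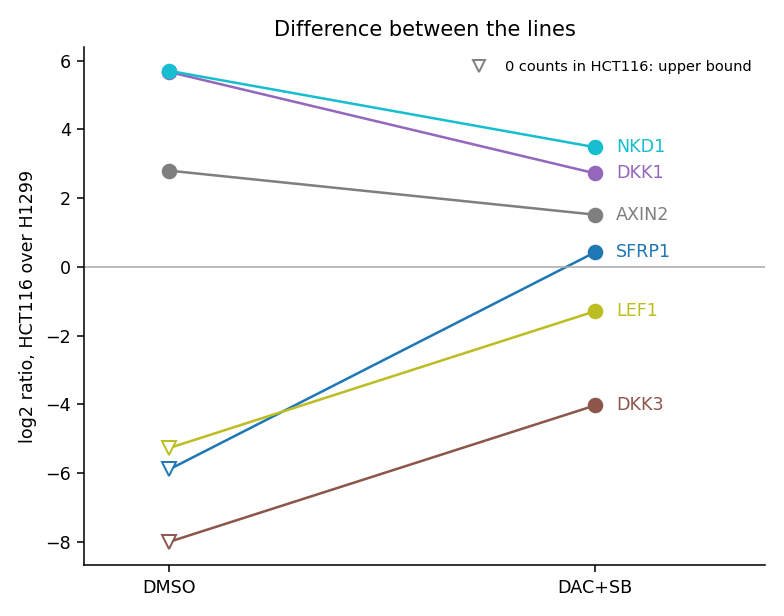
Log2 ratio of HCT116 over H1299 (vertical axis) under DMSO and under DAC+SB (horizontal axis) for the 6 genes that reached 100 counts in either DMSO library. Open triangles are upper bounds for genes with 0 counts in HCT116 DMSO. All these genes were at least 4-fold apart under DMSO. Every line comes closer to 0 under DAC+SB, and SFRP1 crosses it, from the bound of -5.89 to 0.42.

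Other genes of the pathway were read from 7 lists with 99 genes. CTNNB1, which encodes beta-catenin, had 3114 and 2416 counts in H1299 and 6648 and 2839 in HCT116, DMSO first. Its log2 ratio over DMSO was -0.32 (-0.40 to -0.24) and -0.54 (-0.61 to -0.48). It was 2.20-fold higher in HCT116 than in H1299 with DMSO and 1.88-fold with DAC+SB. Of 65 listed genes with at least 100 counts in H1299, 7 were at least 4-fold higher with DAC+SB and 0 lower, and of 62 in HCT116, 7 were higher and 4 lower. These are 10.8% higher in H1299. In HCT116 they are 11.3% higher and 6.45% lower. Of all genes 11% (H1299) and 9.63% (HCT116) were higher, and 0.349% and 3.69% were lower, so the shares that were higher were near the background. The medians were 0.04 and -0.37 on the log2 scale, against -0.07 and -0.23 over all genes.

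Among the other antagonists, 1 of 5 genes with at least 100 counts was at least 4-fold higher in each line, where 11% of all genes were in H1299 and 9.63% in HCT116. DKK4, a relative of DKK1 that also acts on the LRP co-receptor, had 3 untreated and 1241 treated counts in HCT116 and stood at 9.38 (7.83 to 11.66) on the log2 scale, with 0 and 11 counts in H1299. NOTUM, an enzyme that removes the lipid from Wnt proteins, had 37 and 219 counts in H1299 and 507 and 185 in HCT116, with log2 ratios of 2.61 and -0.77. Among cytoplasmic genes, 2 of 19 were higher in H1299, and 1 of 17 was higher and 1 lower in HCT116. NKD2, a relative of NKD1, had 40 and 258 counts in H1299 and 472 and 275 in HCT116, untreated first, with log2 ratios of 2.74 and -0.09. DACT3, a Dishevelled-binding antagonist, was at 3.25 and 2.18, and AMER1, a membrane anchor of the degradation complex, at -1.69 and -2.14.

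Of the ligands and their secretion genes, 2 of 10 were at least 4-fold higher in H1299, and 2 of 8 were higher and 1 lower in HCT116. The shares of all genes were 11% higher and 0.349% lower for H1299 against 9.63% and 3.69% for HCT116, and they apply to each list here. WNT7B had 2 untreated and 168 treated counts in H1299, at 6.44 (4.56 to 9.497) on the log2 scale. In HCT116 it had 306 and 308 counts, which is 0.70 (0.46 to 0.93) on that scale as the treated library is smaller. WNT2B was at 2.26 in H1299. WNT9A and WNT11 were at 3.64 and 2.81 in HCT116. WNT16 had 2039 counts in untreated and 177 in treated HCT116, which is -2.84 on the log2 scale, and was at 1.34 in H1299. Of the receptors, 1 of 13 was higher in H1299, and 1 of 12 was higher and 1 lower in HCT116. ROR2 had 5 untreated and 115 treated counts in H1299 (log2 ratio 4.57). In HCT116 FZD9 was 11.3-fold higher and LRP5, the co-receptor gene, was at -2.23 on the log2 scale. In the R-spondin axis 0 of the 2 and 0 of the 3 genes that reached 100 counts were past 4-fold, H1299 first. Their median log2 ratios were -0.22 and -1.17. Among nuclear factors 1 of 13 was higher in H1299, the corepressor gene TLE4 at 2.34, and 0 of 11 were past 4-fold in HCT116. TLE4 itself had 0 untreated and 82 treated counts in HCT116, 44.0-fold higher with the 0 set to 3 counts but under 100 counts. Over the 7 lists, 9 of 27 genes with 0 to 3 untreated counts had at least 20 with DAC+SB in H1299 and 7 of 23 in HCT116, against 11.4% and 9.8% of all such genes.

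Of other known beta-catenin targets, 0 of 3 were past 4-fold in H1299, and in HCT116 2 of 6 were higher and 1 lower, where 9.63% of all genes were higher and 3.69% lower. The cyclin gene CCND1 had 16187 counts in untreated and 1663 in treated HCT116, which is -2.60 (-2.67 to -2.52) on the log2 scale, against -1.24 in H1299. EPHB3 and TNFRSF19, both receptor genes, were at 2.47 and 3.90 in HCT116. With DMSO 3 of 5 targets were at least 4-fold higher in HCT116 than in H1299 (EPHB2, EPHB3 and SP5) and 1 was lower (CD44), against 8.11% higher and 9.92% lower of all genes. AXIN2 and NKD1 were higher with DAC+SB in HCT116 by less than 4-fold while CCND1 was lower, so the targets did not move together in that line.

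**Figure D4:**
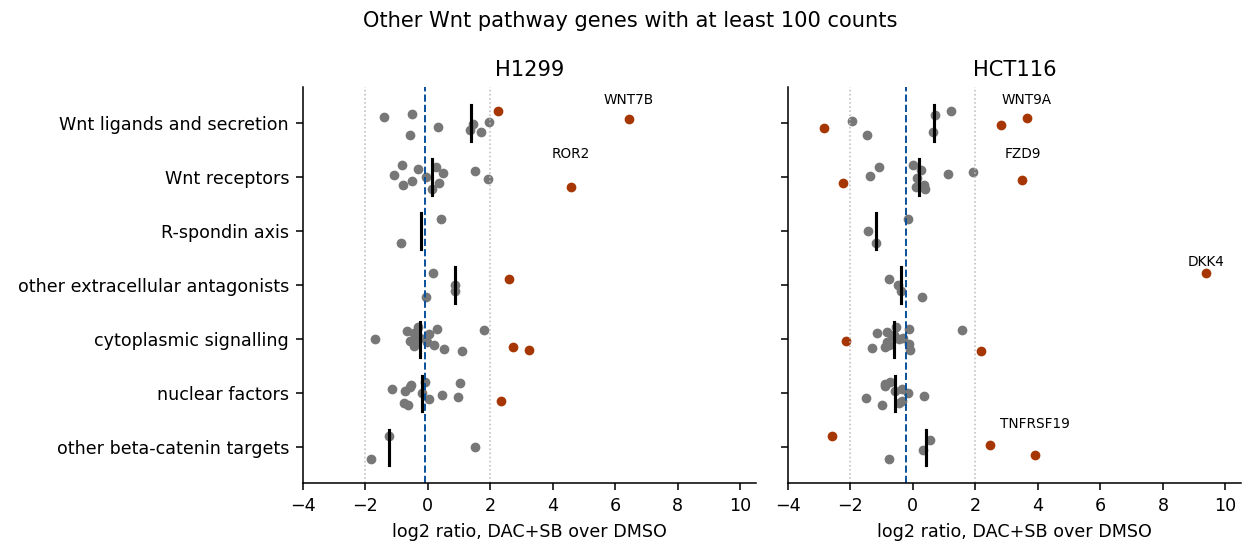
Log2 ratio of DAC+SB over DMSO (horizontal axis) for other Wnt pathway genes that reached 100 counts in either library compared, by list (vertical axis), in H1299 (left) and HCT116 (right). Black bars are list medians, the dashed line is the median of all genes (-0.07 and -0.23), and coloured points lie past 4-fold. DKK4 stands at 9.38 in HCT116.

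The genes most like each of the 7 genes with at least 100 counts in a library were found by the Euclidean distance of log2(CPM + 0.1) over the 4 libraries. RAB39B was nearest to SFRP1 (distance 0.45), with 194 and 543 counts in H1299 and 0 and 411 in HCT116, untreated first. VSIR was nearest to AXIN2 (0.30), SLC8A1 to DKK3 (0.47), DSCR4 to LEF1 (0.29), LILRB5 to SFRP2 (0.23) and FAM212A to NKD1 (0.90). The second nearest were TMEFF2, CNGA1, ZNF257, RP11-340I6.8, RP11-347H15.5 and RAB20 in the same order. DKK1 had no close neighbour, as its nearest genes, SOX4 and CHCHD10, were at distances of 1.94 and 2.03. A distance over 4 libraries describes these libraries only.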

How the data were processed

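Gene and TE counts per cell were deposited by the authors as whole numbers, without normalisation. Per the labels' protocols the libraries were made with the 5′ single-cell chemistry of 10x Genomics, and read 1 holds a barcode and a molecular identifier. CASAVA, STAR and the builds GRCh38 and hg38 are named in the submitters' processing notes. The sources used here name no counting tool, annotation or cell filter, and do not say whether counts are molecules. Cells were assigned to libraries by the library name in the cell name, and all 15289 cells were used. Doublets were not called.

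Counts of all features of a gene were summed per library and divided by gene plus TE counts (Python 3.11.15, numpy 2.4.6, scipy 1.17.1). Names that join several genes (2419) entered only an alternative. For a gene at 0 the ratio was bounded by taking 3 counts in its place, which holds only if no unlisted numbered feature had counts. Such a bound leaves out the counting error of the other library. Genes were counted past 4-fold if the higher library had at least 100 counts. Intervals are exact Poisson, exact conditional binomial for ratios, Clopper-Pearson for shares, and a normal approximation for differences between lines. Cells were thinned by a hypergeometric draw. The genes and lists were chosen with earlier results of these data known. Besides the 10 genes, the text names listed genes past 4-fold in either line (at most 6 per list and line), CTNNB1, and the 2 nearest genes of each gene with at least 100 counts. SP5, EPHB2 and CD44 fall outside that rule and were named after their values were seen.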

Additional observations from a re-analysis of the deposited data

Results flagged for a closer look

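DKK1 was higher with DAC+SB in H1299 (5.20-fold) and lower in HCT116 (0.675-fold), so that the HCT116 log2 ratio minus the H1299 one was -2.95. WNT16 also went opposite ways, at 2.52-fold in H1299 and 0.140-fold in HCT116, a difference of -4.18. NOTUM was at 6.12-fold and 0.587-fold, a difference of -3.38. Of 56 other Wnt genes with at least 100 counts in both lines, 9 went opposite ways with both counting intervals leaving out 1 (16.1%), and 2 of them were past 4-fold in a line (3.57%). Of all 12644 such genes 14% and 2.1% did, so opposite directions were near the background in the Wnt lists. For DKK1, WNT16 and NOTUM the counting intervals of both ratios left out 1, but every line had 1 library per treatment and the difference was not tested between cultures.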

How the results depend on the processing

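Every ratio rests on 1 library per group, and depth limits genes under about 100 counts. No paired analysis was possible because each group had 1 library. No member that was at least 4-fold apart in a contrast fell short of 4-fold or changed direction under the other denominator, the other treatments of features or cells, or the mean over cells. Of 232 such recomputed log2 ratios and line differences, 226 stayed within the counting interval of the reported value and 8, none of them past 4-fold, had the other sign. Some of the 232 could not move. Only AXIN2 has a joined name, and SFRP1, SFRP4, SFRP5, DKK3 and LEF1 have no numbered feature. Bounds were checked against an interval open on 1 side. In HCT116, listing numbered features in both libraries left 1 member higher with DAC+SB in place of 2, and 794 of all genes in place of 1304. With a minimum of 20 counts, 5 of 8 members were higher with DAC+SB in each line. Of other Wnt genes 21 of 81 were then higher in H1299 and 15 of 82 in HCT116, and 11 higher and 7 lower of 88 in HCT116 against H1299 under DAC+SB. Over all genes that minimum gave 3992 higher and 117 lower of 20097 in H1299 (19.9% and 0.582%), 3466 higher of 18673 in HCT116 (18.6%), and 1855 higher and 2250 lower of 17856 (DMSO) and 1451 and 2244 of 20588 (DAC+SB) in HCT116 against H1299. At 2-fold, 4 of 5 members were higher with DAC+SB in HCT116, and 2 of 7 were lower in HCT116 than in H1299 under DAC+SB. Other Wnt genes at 2-fold numbered 17 higher and 6 lower in H1299 and 11 and 13 in HCT116 with DAC+SB, and in HCT116 against H1299 16 and 12 under DMSO and 11 and 17 under DAC+SB. Over all genes the 2-fold numbers were 2673 and 1072, 2192 and 2706, 2092 and 2833, and 1802 and 3781 in the same order, of 14610, 13539, 13796 and 14875 genes. Shares of cells depended on depth. Without thinning 26 of 40 shares left their counting interval, with another random draw 3 of 40, and without cells above 25% mitochondrial counts 1 of 40. Without thinning, 5 members in place of 2 were present in at least 1% of H1299 DMSO cells.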
